A study of Mus musculus with 48 samples.

Results

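Dividing cells copy their DNA and then part the copies with a spindle, and 50 genes of these steps were followed here in the kidney after loss of kidney mass.
They were taken from a named list of mitosis and DNA synthesis genes, with older synonyms accepted.
Each was read by the probe set that carries a single gene symbol and has the highest mean over the 48 arrays.
Such a probe set was listed for 49 of the 50 genes, and cyclin B1 (Ccnb1), without one, was not analysed here.
The transcription factor gene Mybl2 did not pass the filter on low values, which asked for more than 2.277 on at least 4 arrays, so that 48 of the 13174 genes tested belong to the list.
E2f8, Foxm1, Ndc80 and Ttk were above that value only on arrays of nephrectomized kidneys and could therefore only be measured as higher there. Aurka, Plk1, Kif4 and Nuf2 were above it on fewer than 4 sham arrays, so they too passed the filter through nephrectomized kidneys. The counts below therefore describe the members and do not test them as a set.
All levels are on the deposited log2 scale, where 1 unit is a doubling, and a level is compared only with other levels of the same gene.

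The kidneys came from mice of the FVB strain, which is predisposed to renal lesions after loss of nephrons, and from C57BL/6 mice (B6), which are not.
Each animal had either a subtotal nephrectomy (Nx), which removes most of the renal mass, or a sham operation at 9 weeks of age, and was studied at day 2, day 28 or day 53.
The 12 groups are thus sham and Nx kidneys of each strain at each day, with 4 mice and 1 array of whole-kidney RNA per mouse, and mice are named below by the numbers in their labels.
In such RNA, more dividing cells and more RNA of these genes per cell cannot be told apart.

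As background, cyclins and their kinases time the cycle: cyclin E and the E2F factors open S phase, in which nucleotide enzymes and origin factors serve replication.
The kinase Cdk1 with cyclins A and B then drives mitosis, in which kinetochores tie chromosomes to the spindle, a checkpoint delays anaphase until all are attached, and motor proteins and scaffold proteins of the midzone complete division.
Tubule cells of the healthy adult kidney divide rarely, and they re-enter the cycle after injury or loss of nephrons.

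The arrays themselves held proximal tubule markers at a high level, with a mean of the 8 markers between 11.14 and 12.99 on every array of the groups.
Transcripts of pancreatic enzymes exceeded a mean of 5 in 16 of the 24 nephrectomized kidneys and in 3 of the 24 sham kidneys.
The 3′ minus 5′ difference of Gapdh probe sets, a sign of RNA integrity, had group means from 0.09 to 0.31 and a higher mean in Nx than in sham kidneys in all 6 pairs of groups.
At day 2 its Nx and sham kidneys were apart, at 0.23 to 0.45 against 0.14 to 0.19 in FVB and 0.23 to 0.42 against 0.08 to 0.19 in B6, so it moved with surgery beside the members.
The same difference of Actb had group means from 1.91 to 2.41 and was lower in Nx than in sham kidneys in FVB at day 53, at 1.85 to 1.96 against 2.09 to 2.23.
With a score of the pancreatic transcripts as a covariate, 222 of 223 calls of single members kept direction and call, and Racgap1 in B6 at day 28 no longer passed (0.53, adjusted p = 0.134).
The part of the RNA integrity differences in the results below was not tested.

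Genes of mitosis and DNA synthesis rose in both strains at day 2, were nearer to the sham level at day 28, and at day 53 rose again in FVB kidneys.
The mean of the 48 members at day 2 was 4.19 ± 0.13 (SD, n = 4) in FVB sham kidneys and 6.47 ± 0.23 in FVB Nx kidneys, against 4.10 ± 0.17 and 6.85 ± 0.10 in B6.
At day 28 it was 3.50 ± 0.10 and 4.44 ± 0.36 in FVB sham and Nx kidneys, and 3.60 ± 0.14 and 4.66 ± 0.54 in B6.
At day 53 the FVB means were 3.49 ± 0.15 and 5.30 ± 0.32, while the B6 means were 3.62 ± 0.25 and 4.22 ± 0.09.
Sham and Nx animals did not overlap in this mean in any of the 6 pairs of groups, and the spread was widest among B6 Nx kidneys at day 28, from 4.06 to 5.35.

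Gene by gene, limma with Benjamini-Hochberg adjustment over all 13174 genes called 43 of 48 members higher in FVB Nx than sham kidneys at day 2, where 24.8% of all genes were called higher.
In B6 kidneys at day 2 the count was 46 of 48, against 20.2% of all genes.
At day 28 it was 21 in FVB, against 7.35% of all genes, and 25 in B6, against 9.85%.
At day 53 the FVB count was 35, against 25.9%, and the B6 count was 14, against 8.03%. These shares of all genes also stand beside the counts by role below.
The only member called lower in any of these comparisons was Ect2 in B6 at day 53, where 6.68% of all genes were called lower.
The median change of the members was 2.72, 0.56 and 1.77 in FVB at the 3 days and 3.13, 0.63 and 0.26 in B6, while the median of all genes lay between -0.032 and -0.006.
Without the 19 arrays that hold pancreatic transcripts, which leaves 1 FVB Nx array at day 28 (mouse 2, the lowest of its group in the member mean at 4.07), the FVB count at day 28 was 1, with the spread of that lone array taken from the other groups, and with the pancreatic score as a covariate it was 21.
The B6 count at day 53 was 10 without those 19 arrays, where Top2a (adjusted p = 0.0562), Ccna2 (0.0503), Cenpa (0.272), Cenpf (0.0696), Kif2c (0.225), Anln (0.0624) and Ect2 (0.196) lost their calls there.

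**Figure D1:**
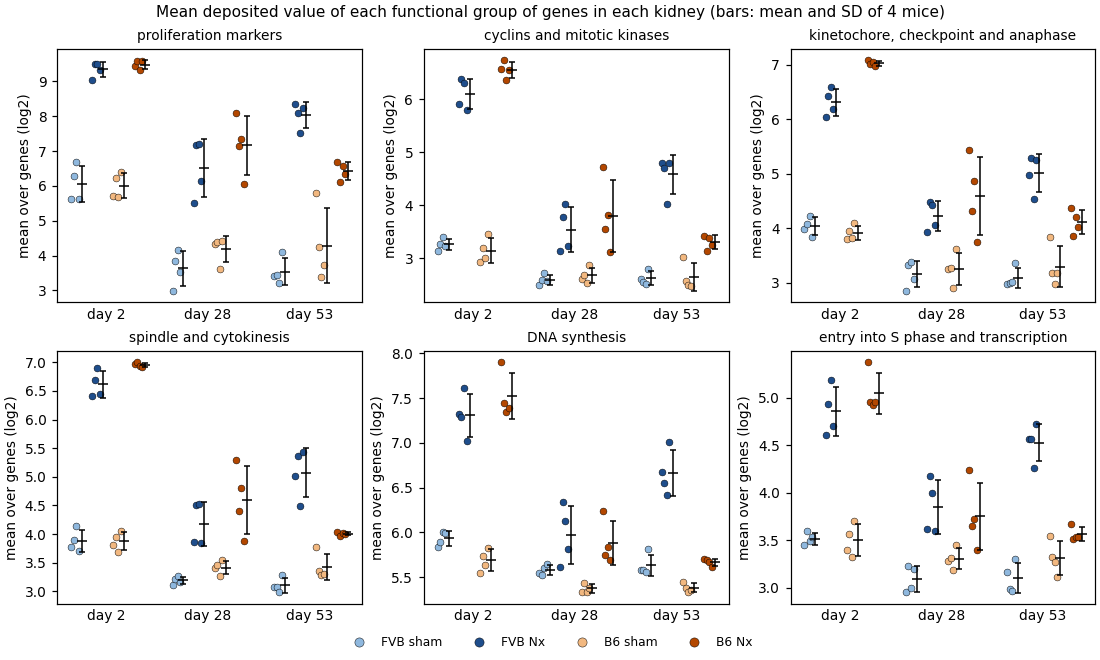
Mean log2 level of the members of each role in every kidney (y axis, deposited log2 scale) by strain, surgery and day (x axis, 12 groups). Points are single mice and bars the mean and SD of 4, and in the panel of proliferation markers the FVB Nx mice lie between 9.05 and 9.51 at day 2, 5.50 and 7.21 at day 28, and 7.51 and 8.35 at day 53.

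The proliferation markers Mki67, whose protein coats the chromosomes of cycling cells, and Top2a, the topoisomerase that untangles sister DNA, rose in all 6 comparisons.
In FVB kidneys at day 2, Mki67 measured 5.81, 6.13, 6.70 and 5.87 in the sham mice and 9.26, 9.50, 9.51 and 9.63 in the Nx mice.
At day 28 the FVB values were 2.27, 3.63, 3.84 and 3.28 after sham surgery and 5.67, 7.55, 7.65 and 6.39 after Nx.
At day 53 they were 3.02, 3.25, 3.25 and 3.71 after sham surgery and 8.71, 8.57, 7.91 and 8.45 after Nx.
No Nx mouse overlapped the sham mice at any of the 3 days, and both surgery groups were highest at day 2.
The change of Mki67 in FVB was 10.2-fold at day 2, 11.8-fold at day 28 and 34.3-fold at day 53 (log2 5.10 (SE 0.42, adjusted p = 7.09e-13)).
In B6 kidneys Mki67 measured 6.13, 6.53, 5.73 and 6.43 in sham mice and 9.74, 9.85, 9.69 and 9.94 in Nx mice at day 2.
At day 53 the B6 values were 6.00, 4.04, 3.29 and 3.56 in sham mice and 7.11, 6.60, 7.02 and 6.79 in Nx mice.
Sham mouse 1 of that last group stood above its fellows but below all 4 Nx mice.
The B6 changes were 12.1-fold, 10.7-fold and 6.33-fold at day 2, 28 and 53.
Top2a rose 9.48-fold, 4.57-fold and 15.1-fold in FVB and 10.2-fold, 5.79-fold and 3.07-fold in B6.

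Among the 11 cyclins and mitotic kinases, all were called higher at day 2 in both strains, with a median change of 2.93 in FVB and 3.82 in B6.
At day 28 the count was 5 in FVB and 6 in B6, and at day 53 it was 9 in FVB and 3 in B6.
Cdk1, the kinase that drives entry into mitosis, measured 3.65, 3.70, 3.55 and 4.68 in FVB sham mice and 7.53, 7.84, 6.96 and 7.80 in FVB Nx mice at day 53.
In B6 at day 53 it measured 4.88, 3.65, 3.46 and 3.47 in sham mice and 6.36, 5.49, 6.12 and 6.24 in Nx mice.
The groups did not overlap in either strain, and the Cdk1 change was 12.4-fold in FVB and 4.55-fold in B6, after 9.31-fold and 17.4-fold at day 2.
Its partner Ccna2 (cyclin A2) rose 10.9-fold, 4.91-fold and 9.49-fold in FVB, and 14.3-fold, 5.22-fold and 3.05-fold in B6, and Ccnb2 (cyclin B2) was likewise called in all 6 comparisons.
The kinases of the spindle poles and the midzone, Aurka, Aurkb and Plk1, rose 9.39-fold, 8.80-fold and 6.69-fold in FVB at day 2. Their sham kidneys lay at 2.21 to 2.39, 2.33 to 2.38 and 2.20 to 2.70, near the lowest deposited value of 2.1979. These folds may therefore be too small.
At day 53 in FVB these 3 kinases rose at least 2.00-fold, at least 2.78-fold and at least 1.32-fold, while in B6 their log2 changes of 0.01, 0.05 and 0.15 did not pass.
"At least" marks a change whose lower group lies wholly at or under a dim level. That level is the filter value, or a higher value that the probe set repeats on 10 or more arrays. The fold is counted from that level, and kidneys of the lower group can lie further below it.
Without a filter on low values, with a stricter filter, with a common array median or with dim values raised, Plk1 in FVB at day 53 no longer passed.

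Ttk, the kinase that loads the spindle checkpoint, had the smallest mean change of this role and was called at day 2 alone.
It lay at 2.20 in all 24 sham kidneys and measured 3.41, 4.49, 4.31 and 3.99 in FVB Nx mice and 4.18, 4.79, 3.96 and 4.64 in B6 Nx mice at day 2.
At day 53 the highest Nx kidneys reached 2.39 in FVB and 2.26 in B6.
The day 2 change was at least 3.42-fold in FVB and at least 4.33-fold in B6.
Bub1, another checkpoint kinase, measured 2.30, 2.20, 2.30 and 2.30 in FVB sham mice and 5.95, 5.41, 4.97 and 6.00 in FVB Nx mice at day 53.
Its B6 values at day 53 were 2.32, 2.20, 2.20 and 2.20 in sham mice and 3.63, 2.71, 3.32 and 2.68 in Nx mice.
The Nx mice were above the sham mice in both strains, by at least 9.71-fold in FVB, while the B6 change of 0.86 (SE 0.37, adjusted p = 0.124) did not pass.
Chek1, the kinase that guards stalled replication forks, rose at least 5.25-fold in FVB and at least 5.58-fold in B6 at day 2.
At day 53 Chek1 measured 4.84, 4.59, 3.90 and 5.32 in FVB Nx mice, against 2.20 to 2.50 in their sham controls, and 2.58, 2.50, 2.58 and 2.58 in B6 Nx mice, against 2.20 to 2.58.
The FVB groups were apart and the B6 groups overlapped.
Melk, a further mitotic kinase, rose 3.98-fold in FVB at day 53, and its B6 change of 0.24 did not pass.

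**Figure D2:**
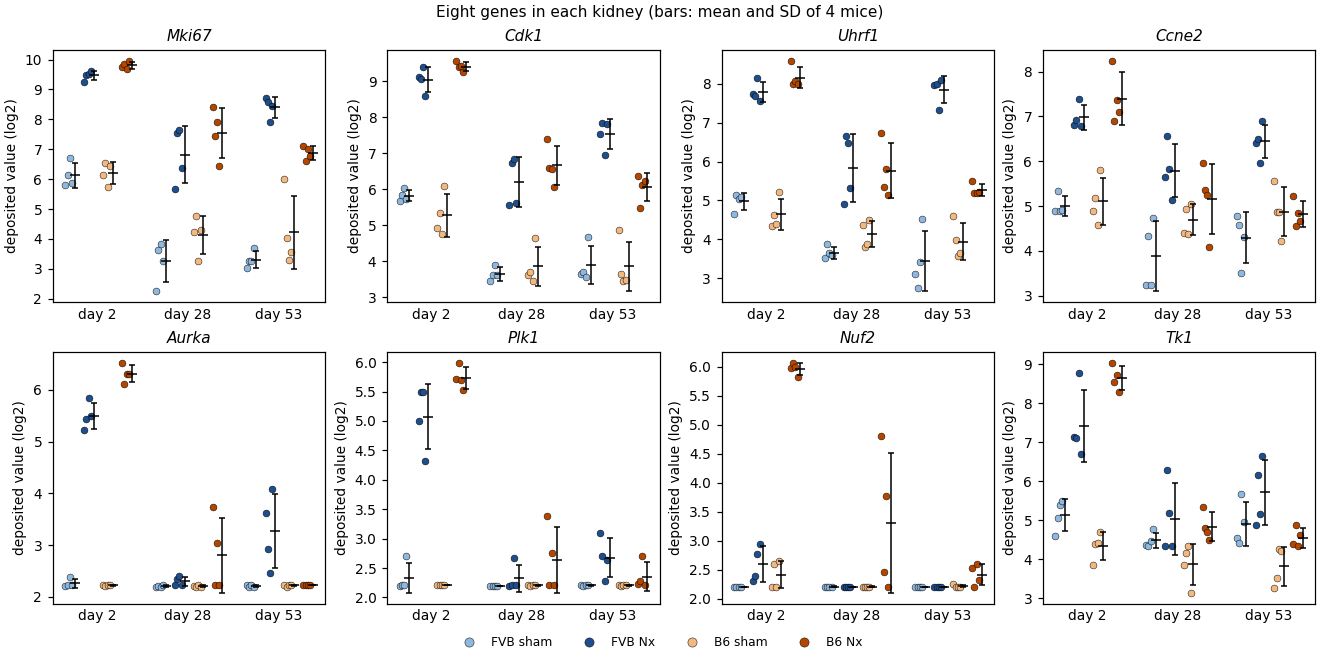
Log2 level (y axis, deposited scale) of Mki67, Cdk1, Uhrf1, Ccne2, Aurka, Plk1, Nuf2 and Tk1 in every kidney by strain, surgery and day (x axis), with points for single mice and bars for the mean and SD of 4. Nuf2 lies between 5.83 and 6.06 in B6 Nx kidneys at day 2 and between 2.30 and 2.95 in FVB Nx kidneys.

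The 8 members at the kinetochore, in its checkpoint and at anaphase were called higher in 7 cases in FVB and in all 8 in B6 at day 2, in 4 and 6 at day 28, and in 5 and 4 at day 53.
Birc5 (survivin), the subunit that carries the chromosomal passenger complex to the centromere, had the largest mean change of them.
At day 2 it measured 4.44, 5.16, 5.60 and 4.64 in FVB sham mice and 8.22, 8.66, 9.00 and 8.47 in FVB Nx mice.
At day 53 it measured 2.51, 2.51, 2.78 and 3.97 in FVB sham mice and 6.73, 7.58, 6.50 and 7.25 in FVB Nx mice.
B6 kidneys at day 53 held Birc5 at 5.02, 2.76, 2.84 and 3.33 after sham surgery and 5.44, 5.14, 5.50 and 5.16 after Nx.
The groups were apart in each case, with sham mouse 1 of B6 just under its Nx group, and the change at day 53 was 16.8-fold in FVB and 3.54-fold in B6.
Cenpf, a protein of the outer kinetochore, rose 11.5-fold, 3.29-fold and 9.84-fold in FVB and 15.3-fold, 3.16-fold and 2.69-fold in B6.
Cenpa, the histone that marks centromeres, and Cdc20, which activates the anaphase-promoting complex, also passed in all 6 comparisons, Cenpa in B6 at day 53 only narrowly (1.04 (SE 0.35, adjusted p = 0.0382), and 0.0597 without a filter on low values).
Ndc80, which binds spindle microtubules, lay between 2.20 and 2.21 in every sham kidney and measured 2.21, 3.59, 3.38 and 2.66 in FVB Nx mice and 4.32, 3.61, 3.22 and 2.91 in B6 Nx mice at day 2.
FVB Nx mouse 1 was thus at the sham level, and the change was at least 1.61-fold in FVB and at least 2.36-fold in B6, with no call at day 28 or day 53.
Espl1 (separase), which cuts the link between sister chromatids, rose at day 2 alone, 2.22-fold in FVB and at least 3.08-fold in B6.

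Nuf2, which forms a complex with Ndc80, parted the strains at day 2.
In FVB it measured 2.21, 2.21, 2.21 and 2.21 in sham mice and 2.30, 2.39, 2.78 and 2.95 in Nx mice, a change of 0.40 (SE 0.25, adjusted p = 0.186) that did not pass.
In B6 it measured 2.21, 2.60, 2.21 and 2.65 in sham mice and 5.98, 6.06, 5.99 and 5.83 in Nx mice, a change of 11.7-fold (log2 3.55 (SE 0.25, adjusted p = 5.86e-14)).
Every B6 Nx kidney was above every FVB Nx kidney.
At day 28 the B6 Nx values were 4.80, 2.46, 3.78 and 2.21, of which 1 lay at the sham level, while all 4 FVB Nx kidneys were at 2.21.
At day 53 all 4 FVB Nx kidneys again lay at 2.21, where Mki67, Cdk1 and Birc5 were raised, and the B6 Nx kidneys lay between 2.21 and 2.60. On no FVB array did Nuf2 exceed 2.95. Nuf2 was read by 1 kept probe set, so no second one could be set beside it. How well this probe set reads Nuf2 in FVB kidneys was not tested.

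All 12 members of the spindle and of cytokinesis were called higher at day 2 in both strains, 6 in FVB and 9 in B6 at day 28, and 10 in FVB and 3 in B6 at day 53.
Anln (anillin), the scaffold of the contractile ring, measured 2.29, 2.49, 2.99 and 3.47 in FVB sham mice and 6.70, 7.21, 6.11 and 7.05 in FVB Nx mice at day 53.
In B6 it measured 4.28, 3.40, 3.40 and 3.40 in sham mice and 5.28, 4.85, 4.71 and 4.92 in Nx mice at that day.
No values overlapped, and the change was 15.5-fold in FVB and 2.50-fold in B6.
Nusap1, which bundles spindle microtubules, rose 9.32-fold, 4.30-fold and 15.0-fold in FVB and 17.3-fold, 4.85-fold and 4.05-fold in B6.
Prc1, which crosslinks the midzone, measured 4.89, 5.31, 3.76 and 4.87 in FVB Nx mice at day 53, against 2.42 to 2.45 in their sham controls.
Its B6 Nx values at day 53 were 3.31, 2.89, 2.93 and 2.89, against 2.43 to 2.58.
Prc1 was above sham in every Nx kidney of both strains, with a change of 4.83-fold in FVB and a B6 change of 0.53 (SE 0.27, adjusted p = 0.201) that did not pass.
The kinesin Kif2c, which takes microtubules apart, rose 6.99-fold in FVB and 1.92-fold in B6 at day 53, and the kinesin Kif11, which pushes the poles apart, rose 4.48-fold in FVB with a B6 change of 0.75 that did not pass.
The B6 call of Kif2c at day 53 was also lost with dim values raised (0.50, adjusted p = 0.2) and without B6 sham mouse 5, B6 sham mouse 6 or B6 Nx mouse 7 (adjusted p = 0.0746, 0.0733 and 0.1).
Tpx2 and Hmmr, which organise spindle microtubules, and Racgap1, a regulator of the cleavage furrow, were called in FVB at day 2 and 53 and in B6 at day 2 and 28.
Without B6 Nx mouse 3, the B6 calls of all 3 at day 28 no longer passed (adjusted p = 0.429, 0.114 and 0.41).

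Ect2, which switches on the GTPase that drives the cleavage furrow, had the smallest mean change of these 12.
At day 2 it measured 8.50, 8.83, 8.64 and 8.37 in FVB sham mice and 9.53, 9.68, 9.91 and 9.47 in FVB Nx mice, without overlap.
At day 53 it measured 8.36, 8.26, 8.43 and 8.28 in B6 sham mice and 7.49, 7.92, 7.60 and 7.29 in B6 Nx mice.
All 4 B6 Nx kidneys were below all 4 sham kidneys, a change of -0.76 (SE 0.19, adjusted p = 0.00469), where FVB at day 53 differed by 0.08 (SE 0.19, adjusted p = 0.766), which did not pass.
Ect2 therefore rose with the other members at day 2, 2.09-fold in FVB and 2.19-fold in B6, and fell in B6 at day 53. In FVB at day 28 all 4 Nx kidneys (7.80 to 7.96) also lay below all 4 sham kidneys (7.98 to 8.39), a difference that did not pass.
Without the arrays that hold pancreatic transcripts the B6 change at day 53 was -0.57 (adjusted p = 0.196).

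Of the 9 DNA synthesis members, 7 in FVB and 8 in B6 were called higher at day 2, 2 and 1 at day 28, and 6 and 1 at day 53, with a median change at day 2 of 1.15 in FVB and 1.31 in B6. In B6, 1 of 9 stands near the shares of all genes called higher, 9.85% at day 28 and 8.03% at day 53.
Rrm2, the subunit of ribonucleotide reductase that limits the supply of deoxynucleotides, measured 8.90, 9.27, 8.90 and 8.96 in FVB sham mice and 11.63, 11.26, 12.02 and 10.92 in FVB Nx mice at day 2.
In B6 at day 2 it measured 8.06, 8.45, 7.92 and 8.70 in sham mice and 12.25, 11.68, 11.60 and 12.39 in Nx mice.
The groups were apart in both strains, and the change was 5.47-fold in FVB and 13.0-fold in B6.
Rrm2 stayed above sham at day 53, by 4.06-fold in FVB and 2.27-fold in B6, whereas Rrm1, the larger subunit, rose 1.73-fold in FVB and changed by -0.00 in B6, which did not pass.
Tk1, the thymidine kinase of the salvage route, measured 7.14, 7.11, 8.78 and 6.69 in FVB Nx mice and 9.03, 8.54, 8.72 and 8.29 in B6 Nx mice at day 2.
FVB Nx mouse 4 reached the B6 range and the other 3 FVB mice lay below it.
Against sham, Tk1 rose 4.92-fold in FVB and 19.8-fold in B6, the largest change of any member in B6 at day 2.
At day 28 and 53 its changes of 0.55 and 0.82 in FVB and 0.97 and 0.74 in B6 did not pass.

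Pcna, the sliding clamp of DNA polymerase, was bright and tightly grouped.
At day 53 it measured 10.79, 10.89, 10.97 and 11.08 in FVB sham mice and 11.71, 11.79, 11.76 and 11.99 in FVB Nx mice.
In B6 it measured 10.81, 10.92, 10.91 and 10.88 in sham mice and 11.09, 10.99, 11.04 and 10.95 in Nx mice.
Both Nx groups were above their sham groups, by 1.84-fold in FVB, while the B6 change of 0.14 (SE 0.12, adjusted p = 0.503) did not pass.
Gins1, a subunit of the replicative helicase, measured 5.58, 4.96, 5.31 and 5.98 in FVB Nx mice at day 53, against 2.91 to 4.10 in sham mice, and 4.10, 4.09, 4.37 and 4.09 in B6 Nx mice, against 3.62 to 4.00.
Its FVB change was at least 2.56-fold at day 53 after 2.88-fold at day 2, and the B6 change of 0.31 (SE 0.21, adjusted p = 0.36) at day 53 did not pass.
Cdc6 and Cdt1, which load the helicase at origins, rose 7.21-fold and 2.09-fold in FVB and 5.42-fold and 2.39-fold in B6 at day 2.
At day 53 Cdc6 measured 4.63, 3.33, 3.76 and 4.88 in FVB Nx mice and 2.49, 2.40, 2.45 and 2.45 in B6 Nx mice, where sham mice of both strains lay between 2.32 and 2.40.
The FVB rise was 3.40-fold and the B6 change of 0.08 (SE 0.25, adjusted p = 0.936) did not pass.
Tyms, which makes thymidylate, was called in B6 at day 2 alone (0.48 (SE 0.13, adjusted p = 0.00363)), and that value turned on mouse 3 at 3.75, where its 3 fellows lay at 2.96 or 2.97.
Without that mouse the change was 0.28 (adjusted p = 0.0593).
Cdc45, a partner of the helicase, was called in none of the 6 comparisons and lay between 2.71 and 3.38 on all 48 arrays.

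Among the 6 genes that open S phase or drive transcription of the cycle, 4 in FVB and 5 in B6 were called higher at day 2, 2 and 1 at day 28, and 3 and 1 at day 53. Of all genes, 9.85% and 8.03% were called higher in B6 at day 28 and 53. A count of 1 in 6 is not read as a result about this role.
Uhrf1, which carries DNA methylation over to newly copied strands, measured 3.10, 2.74, 3.42 and 4.52 in FVB sham mice and 7.96, 7.99, 7.33 and 8.11 in FVB Nx mice at day 53.
In B6 at day 53 it measured 4.60, 3.97, 3.56 and 3.64 in sham mice and 5.51, 5.19, 5.20 and 5.21 in Nx mice.
Every Nx kidney was above every sham kidney of its strain, and the change was 21.1-fold in FVB and 2.52-fold in B6.
At day 2 it had been 7.03-fold in FVB and 11.5-fold in B6.
Ccne2 (cyclin E2) was called at all 3 days in FVB, 3.92-fold, 3.75-fold and 4.43-fold, and at day 2 alone in B6, 4.86-fold.
At day 53 it measured 6.41, 6.50, 5.97 and 6.89 in FVB Nx mice and 5.22, 4.55, 4.84 and 4.66 in B6 Nx mice.
Sham values of B6 at day 53, from 4.23 to 5.55, spanned those of the Nx mice, and those of FVB, from 3.50 to 4.79, lay below them.
The repressor E2f8 rose at least 6.38-fold in FVB and at least 4.74-fold in B6 at day 2, and at least 3.06-fold in FVB at day 53.
E2f1, an activator of S phase genes, rose at least 1.21-fold in FVB and 1.49-fold in B6 at day 2, and the FVB change of 0.33 (SE 0.12, adjusted p = 0.0224) no longer passed with quantile normalisation (adjusted p = 0.138).
Foxm1, which activates mitotic genes, lay at 2.20 to 2.22 in every sham kidney and measured 2.20, 2.51, 2.50 and 2.20 in FVB Nx mice and 2.89, 2.74, 2.96 and 2.26 in B6 Nx mice at day 2.
These are low levels, of which only the B6 change passed, at least 1.35-fold.
Ccne1 (cyclin E1) was called in no comparison and lay between 3.92 and 4.51 on all 48 arrays.

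**Figure D3:**
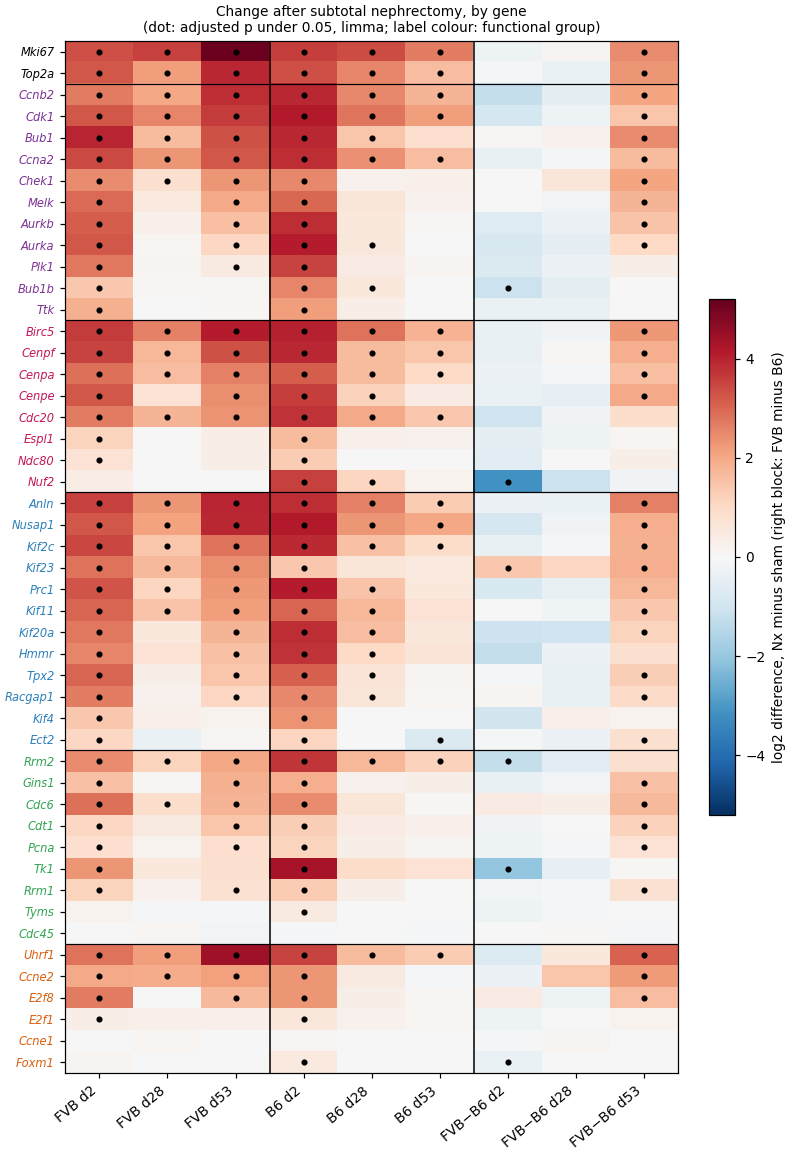
Log2 change of the 48 members (rows, in blocks by role) in 9 comparisons (columns: Nx against sham by strain and day, and the FVB minus B6 difference of that change by day), with colour for the size and sign of the change and dots where the adjusted p is under 0.05. The day 2 columns carry 43 and 46 dots, the B6 column at day 53 carries 15, and the strain difference carries 6, 0 and 32 dots at day 2, 28 and 53.

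Most mitotic and most DNA synthesis members rose at day 2, and the promoters of the 2 kinds were read beside each other.
RefSeq promoters of the mouse build GRCm38.p6, taken as 250 bases before to 50 bases after the start of a gene, were found for 43 of the 50 members.
They were searched on both strands for the letters TTTGAA or TTCGAA, known as the cell cycle genes homology region (CHR), for CCAAT, and for the E2F cores TTGGCGC or TTCGCGC or TTCCCGC or TTGCCGC.
Shown here are the 3 mitotic and the 3 S phase members with the largest mean change at day 2, 5′ to 3′ in the direction of the gene, with these motifs in capitals.
Bub1 lies at chr2:127831810-127832109 on the minus strand, Cenpf at chr1:189688037-189688336 on the minus strand and Birc5 at chr11:117848987-117849286 on the plus strand.
Tk1 lies at chr11:117825965-117826264 on the minus strand, Uhrf1 at chr17:56303087-56303386 on the plus strand and Rrm2 at chr12:24708004-24708303 on the plus strand.
Bub1: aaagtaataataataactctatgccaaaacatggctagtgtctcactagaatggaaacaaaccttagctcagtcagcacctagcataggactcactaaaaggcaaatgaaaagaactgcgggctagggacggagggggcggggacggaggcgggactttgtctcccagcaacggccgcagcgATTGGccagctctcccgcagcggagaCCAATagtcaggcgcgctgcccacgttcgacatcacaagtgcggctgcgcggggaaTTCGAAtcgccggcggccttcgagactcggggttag
Cenpf: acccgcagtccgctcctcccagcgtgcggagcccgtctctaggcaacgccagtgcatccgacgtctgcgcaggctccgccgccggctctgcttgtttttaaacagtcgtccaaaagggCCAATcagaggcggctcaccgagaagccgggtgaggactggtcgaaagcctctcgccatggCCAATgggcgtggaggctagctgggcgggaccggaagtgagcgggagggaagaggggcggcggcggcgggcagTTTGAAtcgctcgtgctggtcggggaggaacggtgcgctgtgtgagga
Birc5: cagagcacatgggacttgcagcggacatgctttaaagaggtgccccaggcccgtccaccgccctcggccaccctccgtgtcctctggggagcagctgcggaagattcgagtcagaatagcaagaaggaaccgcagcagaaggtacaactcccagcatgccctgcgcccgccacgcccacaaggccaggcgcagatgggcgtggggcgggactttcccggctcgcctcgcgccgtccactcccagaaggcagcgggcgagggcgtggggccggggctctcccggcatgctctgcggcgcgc
Tk1: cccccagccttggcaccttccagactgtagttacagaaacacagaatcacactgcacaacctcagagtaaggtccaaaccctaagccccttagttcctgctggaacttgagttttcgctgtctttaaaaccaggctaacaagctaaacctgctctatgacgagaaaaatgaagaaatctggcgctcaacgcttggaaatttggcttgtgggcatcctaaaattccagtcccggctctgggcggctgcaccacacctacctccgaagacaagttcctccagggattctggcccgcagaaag
Uhrf1: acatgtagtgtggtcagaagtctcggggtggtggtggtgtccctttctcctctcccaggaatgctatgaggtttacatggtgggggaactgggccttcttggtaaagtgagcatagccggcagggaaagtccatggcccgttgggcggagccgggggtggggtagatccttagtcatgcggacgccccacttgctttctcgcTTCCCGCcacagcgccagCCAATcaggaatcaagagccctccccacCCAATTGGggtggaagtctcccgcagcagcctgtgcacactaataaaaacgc
Rrm2: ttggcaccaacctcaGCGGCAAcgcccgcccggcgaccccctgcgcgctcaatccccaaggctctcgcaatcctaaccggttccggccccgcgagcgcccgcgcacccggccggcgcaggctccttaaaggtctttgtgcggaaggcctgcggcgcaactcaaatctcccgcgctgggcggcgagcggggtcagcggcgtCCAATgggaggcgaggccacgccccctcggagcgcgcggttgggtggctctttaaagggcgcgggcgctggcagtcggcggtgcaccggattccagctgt

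Bub1 and Cenpf each held a CHR just after the start site, at base 14 and base 2, and a pair of CCAAT motifs before it, at -68 and -42 in Bub1 and at -132 and -71 in Cenpf.
Rrm2 held a CCAAT at -50 and an E2F core at -235, and Uhrf1 an E2F core at -48 and CCAAT at -30 and, in overlapping letters on both strands, at -2 and 1.
Uhrf1 has 2 promoters in the table, of which 1 is shown, and Birc5 and Tk1 held none of these letters in this window.
Over the mitosis members and markers, 23 of 30 promoters (76.7%) held a CHR, against 2 of 13 (15.4%) of the DNA synthesis and S phase members and 19.4% of all 27025 promoters of the same length.
Within 50 bases of the start site the shares were 21 of 30 (70.0%), 2 of 13 (15.4%) and 5.29%.
CCAAT was found in 73.3% of the mitotic promoters, 46.2% of the DNA synthesis and S phase promoters and 37.9% of all promoters, and an E2F core in 20.0%, 46.2% and 9.69%.
These letters describe the sequence and do not show that a factor binds there.

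**Figure D4:**
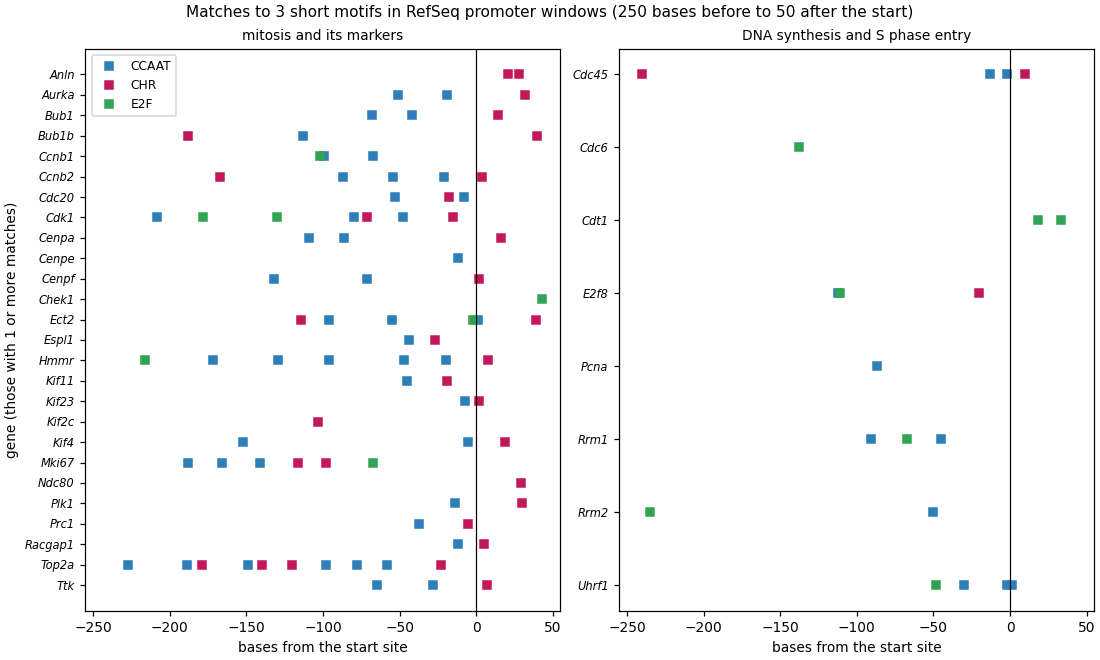
Positions of CHR, CCAAT and E2F motifs (x axis, bases from the start site) in the promoters of the members (y axis), with mitosis members and markers on the left and DNA synthesis and S phase members on the right. CHR marks gather near the start site on the left, where 21 of 30 promoters have one within 50 bases, against 2 of 13 on the right.

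The time course of the surgery effect was tested as the difference of the Nx change between days.
From day 2 to day 28 the change fell for 29 of 48 members in FVB, where 12.5% of all genes were called lower, and for 35 in B6, against 4.02%, with no member called higher in either strain (limma, also 0 at an unadjusted p under 0.05).
From day 28 to day 53 it rose for 22 members in FVB, against 13.7% of all genes, with none called lower (1 lower at an unadjusted p under 0.05).
In B6 limma called 0 members from day 28 to day 53 and 0.00% of all genes, with 6 members lower at an unadjusted p under 0.05.
In FVB, 21 members were called higher at all 3 days, 14 at day 2 and 53, and 8 at day 2 alone, namely Bub1b, E2f1, Ect2, Espl1, Kif4, Ndc80, Tk1 and Ttk.
In B6, 14 were called higher at all 3 days, 11 at day 2 and 28, and 20 at day 2 alone. The shares of all genes with these patterns are not given here, so the patterns are not read as particular to the members.
For 12 members the FVB change at day 53 was larger than at day 2, namely Anln, Birc5, Ccnb2, Ccne2, Cdk1, Cdt1, Gins1, Mki67, Nusap1, Pcna, Top2a and Uhrf1, and for 0 of 48 in B6. Each change is against the sham group of its own day, and the changes of day 53 and day 2 were not tested against each other. The share of all genes with a larger change at day 53 is not given here. Of all genes, 24.8% and 25.9% were called higher in FVB at day 2 and 53, and 20.2% and 8.03% in B6. The counts of 12 and 0 are thus not read as particular to the members. The mean of the 48 members was lower at day 53 than at day 2 in FVB Nx kidneys (5.30 against 6.47). In FVB sham kidneys it was also lower (3.49 against 4.19).
Leaving out FVB Nx mouse 8 of day 28 lowered the count of 22 to 15.

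At day 28 the kidneys of each Nx group were uneven.
The member mean was 4.07, 4.75, 4.74 and 4.18 in FVB Nx mice 2, 3, 7 and 8, and 5.35, 4.47, 4.76 and 4.06 in B6 Nx mice 3, 4, 5 and 9.
B6 mouse 3 was the highest and mouse 9 the lowest of their group, and without mouse 3 the B6 count fell from 25 to 18.
Fitted on the arrays of that comparison alone, the B6 count was 14.
The mean of the 8 macrophage markers in the B6 Nx kidneys at day 28 ran from 8.62 to 10.53, and that of the T cell markers, of which 3 of 6 were measured, from 2.56 to 4.84.

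The strains were compared by testing the difference of their surgery effects, FVB minus B6, at each day.
At day 2 limma called 1 member higher, where 2.27% of all genes were called, and 5 lower, where 2.14% were called, and the median difference over the members was -0.36.
The lower ones were Nuf2 (-3.15 (SE 0.36, adjusted p = 1.07e-07)), Tk1 (-2.01 (SE 0.55, adjusted p = 0.0272)), Rrm2 (-1.25 (SE 0.37, adjusted p = 0.0455)), the checkpoint gene Bub1b (-1.12 (SE 0.27, adjusted p = 0.00984)) and Foxm1 (-0.36 (SE 0.11, adjusted p = 0.0436)).
Bub1b measured 3.60, 4.45, 2.95 and 3.71 in FVB Nx mice and 4.49, 5.60, 4.65 and 4.65 in B6 Nx mice at day 2, without overlap, over sham values of 2.20 to 2.32.
Kif23, the kinesin of the midzone, was the member with the larger change in FVB (1.41 (SE 0.32, adjusted p = 0.00661)).
It measured 3.29, 3.86, 4.20 and 3.61 in FVB sham mice and 6.45, 6.87, 6.71 and 6.23 in FVB Nx mice.
In B6 it measured 5.58, 4.97, 4.78 and 5.44 in sham mice and 6.89, 6.95, 6.03 and 6.61 in Nx mice.
The Nx mice of the strains overlapped and the sham mice did not, with every FVB sham kidney below every B6 sham kidney.
The other kept probe set of Kif23 gave a difference of -0.78 (adjusted p = 0.28), that of Bub1b gave -0.13 (adjusted p = 0.783) and that of Foxm1 gave 0.02 (adjusted p = 0.976), each adjusted over all kept probe sets.
For Rrm2 the other kept probe sets gave -1.06 (adjusted p = 0.0216) and -1.15 (adjusted p = 0.155), and Nuf2 and Tk1 had no other. With that adjustment over all kept probe sets, the used probe sets of Rrm2 (adjusted p = 0.059) and Foxm1 (adjusted p = 0.0523) did not pass either.
Rrm2 and Foxm1 stood close to the threshold and no longer passed without a filter on low values (adjusted p = 0.072 and 0.0556), and Tk1 no longer passed without B6 Nx mouse 3 (adjusted p = 0.0654).
The count of 6 fell to 3 without FVB sham mouse 4, FVB sham mouse 5, B6 sham mouse 1 or B6 Nx mouse 3, and on the arrays of this comparison alone Nuf2 kept its call while the other 5 did not pass.

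At day 28 limma called 0 members between the strains in either direction, where 0.129% of all genes were called, with 2 higher and 2 lower at an unadjusted p under 0.05.
That count does not show that the strains were alike at day 28, since it was 2 without B6 Nx mouse 9.
Without the arrays that hold pancreatic transcripts it was 18, but this compares 1 Nx kidney per strain with the spread taken from the other groups, and the kidneys that remain were the lowest of the FVB group (mouse 2, 4.07) and the highest of the B6 group (mouse 3, 5.35) in the member mean, and its direction is read as no sign of a strain difference.
With the pancreatic score as a covariate the count was 0.

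At day 53 the difference was called for 32 of 48 members, each larger in FVB, where 14.2% of all genes were called higher, and the median difference over the members was 1.35.
By role these were 2 of 2 proliferation markers, 8 of 11 cyclins and mitotic kinases, 4 of 8 kinetochore members, 10 of 12 spindle members, 5 of 9 DNA synthesis members and 3 of 6 S phase members. With dim values raised, Aurka, Aurkb, Tpx2, Racgap1 and E2f8 lost this limma call (adjusted p = 0.15, 0.132, 0.117, 0.218 and 0.181). Kif20a lost it with a common array median (adjusted p = 0.0518), and Ect2 on the arrays of this comparison alone (adjusted p = 0.0502).
The largest difference was that of Uhrf1 (3.07 (SE 0.46, adjusted p = 3.93e-06)), followed by Anln (2.64 (SE 0.49, adjusted p = 7.29e-05)), Bub1 (2.45 (SE 0.53, adjusted p = 0.000484)) and Mki67 (2.44 (SE 0.60, adjusted p = 0.00187)).
Top2a differed by 2.30 (SE 0.53, adjusted p = 0.00103), Birc5 by 2.25 (SE 0.58, adjusted p = 0.00284), Ccne2 by 2.21 (SE 0.51, adjusted p = 0.000937) and Chek1 by 2.05 (SE 0.32, adjusted p = 6.16e-06).
For these 8 genes every FVB Nx kidney was above every B6 Nx kidney while the sham kidneys of the strains overlapped, as for 29 of the 48 members (60.4%) and 14.5% of all genes.
Kif23 differed by 1.90 (SE 0.32, adjusted p = 2.16e-05), with Nx kidneys that overlapped (5.25 to 5.87 in FVB and 5.14 to 5.58 in B6) over sham kidneys that were lower in FVB (3.05 to 3.47 against 4.20 to 5.43).
Kif2c differed by 1.86 (SE 0.41, adjusted p = 0.000552), Prc1 by 1.74 (SE 0.38, adjusted p = 0.000565) and Cdc6 by 1.69 (SE 0.36, adjusted p = 0.000367).
Gins1 differed by 1.53 (SE 0.29, adjusted p = 0.000105) and Pcna, on its narrow scale, by 0.74 (SE 0.16, adjusted p = 0.000595).
No difference passed for Plk1 (0.32), Cdc20 (0.93), Rrm2 (0.84), Hmmr (0.84) or Tk1 (0.07), among others.
Other kept probe sets gave lower values at day 53 for Uhrf1 (0.15, adjusted p = 0.528, mean level 2.29), Anln (0.06, adjusted p = 0.894, mean level 2.28) and Kif23 (0.09, adjusted p = 0.923, mean level 2.75), none of which passed.
For Rrm2 another kept probe set, with a mean level of 3.29, was called higher in FVB (0.93, adjusted p = 0.0102), and a further one was not (0.87, adjusted p = 0.157).

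**Figure D5:**
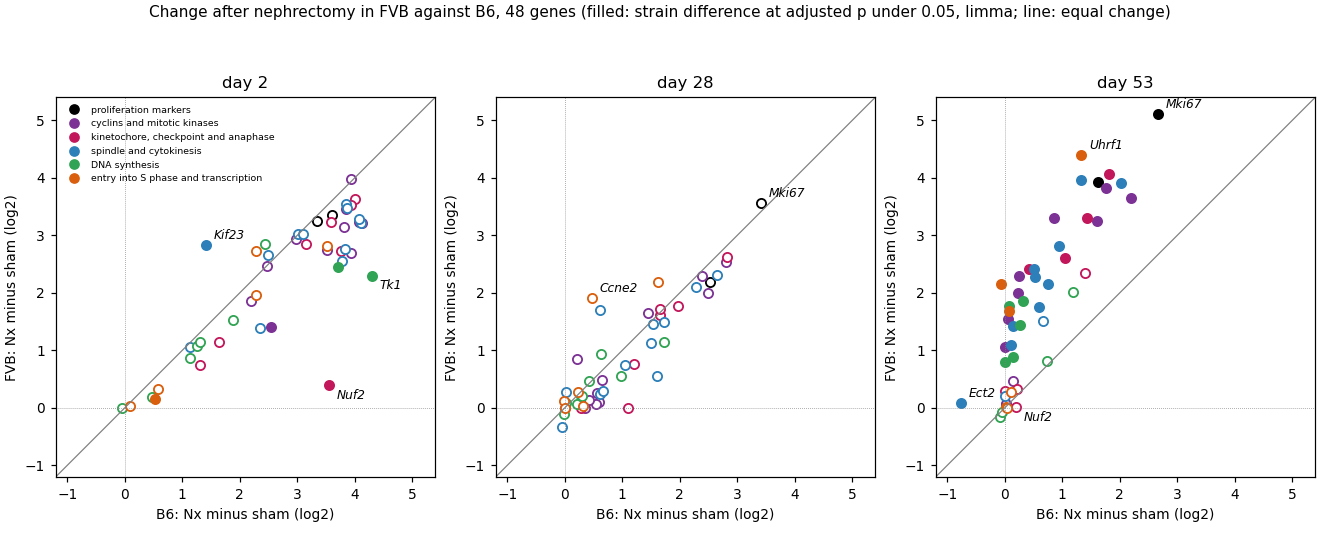
Log2 change after Nx in B6 (x axis) against that in FVB (y axis) for each of the 48 members at day 2, 28 and 53 (3 panels), with the diagonal of equal change and filled points where the strain difference was called. At day 53 all 32 filled points lie on the FVB side of the diagonal, and at day 2 Nuf2 lies far on the B6 side at 0.40 in FVB and 3.55 in B6.

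In sham kidneys, some members were higher at day 2 than at the later days.
Against the mean of day 28 and 53, limma called 16 of 48 members higher at day 2 in FVB sham kidneys, where 2.11% of all genes were called higher, and 8 in B6 sham kidneys, against 0.493%.
The B6 genes were Mki67 (2.03), Top2a (1.50), Birc5 (1.50), Ccnb2 (1.44), Cdk1 (1.42), Ccna2 (1.33), Nusap1 (1.31) and Rrm2 (1.23), each with its log2 difference.
Mki67 in FVB sham mice, for instance, lay between 5.81 and 6.70 at day 2 and between 2.27 and 3.84 at the later days, with no overlap.
The B6 count was sensitive: it was 2 without sham mouse 5 of day 2, and 0 when only the arrays of the comparison entered the fit.
Between the strains, over sham mice of all days, 3 members were higher in FVB, namely Rrm2 (0.87), Tk1 (0.83) and Rrm1 (0.26), where 16.9% of all genes were called higher, and Kif23 (-1.67) and Mki67 (-0.62) were lower, where 15.6% were called lower.

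Other genes of the cycle, from lists compiled with results of these data known, were counted in the same fit. Of all genes, 24.8%, 7.35% and 25.9% were called higher in FVB at day 2, 28 and 53, and 20.2%, 9.85% and 8.03% in B6. In the strain difference at day 53, 14.2% were called higher.
Of 61 other mitosis genes measured, 49 in FVB and 56 in B6 were called higher at day 2, 20 and 27 at day 28, and 40 and 15 at day 53, and the strain difference at day 53 was called higher for 28 and lower for 2.
Ncaph, a subunit of condensin, rose by 2.67 in FVB and 2.70 in B6 at day 2, and the checkpoint gene Mad2l1 rose by 2.14 in FVB and 0.88 in B6 at day 53.
Against this direction, Spag5, a spindle protein, fell by 1.23 at day 28 and 2.55 at day 53 in FVB Nx kidneys, and Spc25, of the Ndc80 complex, fell by 0.46 at day 53.
Of 41 other replication genes measured, 37 were called higher at day 2 in each strain, 13 in FVB and 11 in B6 at day 28, and 32 and 5 at day 53, with 22 called higher in FVB in the strain difference at day 53.
The helicase subunit Mcm6 rose by 4.52 (SE 0.30, adjusted p = 1.92e-15) in FVB at day 53, with a strain difference of 4.69 (SE 0.42, adjusted p = 1.44e-10).
Of 12 cyclins, kinases and E2F factors of G1, 9 were called higher in FVB and 5 in B6 at day 53, among them Cdk6 (2.41 and 0.69) and Myc (3.85 and 1.24).
Ccnd1 (cyclin D1) fell by 0.51 in FVB and 0.71 in B6 at day 2.
Of 13 inhibitors of the cycle and p53 targets, 5 were called higher and 2 lower in FVB at day 53, and 3 and 1 in B6. In B6 at day 53, 6.68% of all genes were called lower, and 1 of 13 stands near that share. The share called lower in FVB at day 53 is not given here, and these small counts are not read as a result about the list.
Cdkn1a (p21), which halts cyclin-dependent kinases, rose with the members, by 2.11, 0.79 and 3.01 in FVB and 2.24, 1.11 and 1.00 in B6 at day 2, 28 and 53, and Rbl2, a repressor of cycle genes in resting cells, was lower in all 6 comparisons.

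Markers of other cell types moved in the same kidneys, and their part in the members' changes was not tested. At day 53, 25.9% of all genes were called higher in FVB, 8.03% in B6 and 14.2% in the strain difference. In B6 at that day 6.68% were called lower. At day 2 and 28 the shares called higher were 24.8% and 7.35% in FVB and 20.2% and 9.85% in B6.
All 8 macrophage markers were called higher in FVB at day 2 and 53 and 6 of 8 at day 28, and in B6 8 of 8 at day 2 and 6 of 8 at day 28 and 53.
Their mean per kidney at day 53 ran from 9.67 to 10.36 in FVB Nx mice and from 8.67 to 9.11 in B6 Nx mice, against 5.99 to 6.43 and 6.43 to 7.35 in sham mice, and 6 of 8 passed in the strain difference.
All 6 fibroblast and myofibroblast markers were called higher in all 6 comparisons.
The 6 injured tubule markers had a mean from 9.46 to 9.89 in FVB Nx mice and from 6.25 to 6.93 in B6 Nx mice at day 53, and all 6 passed in the strain difference.
Of 8 proximal tubule markers, 7 were called lower and 0 higher in FVB at day 53, and 4 lower and 2 higher in B6. The share of all genes called lower in FVB at day 53 is not given here. For 3157 of 13174 genes, every FVB Nx kidney lay below every sham kidney at that day.
Neutrophil markers, of which 2 of 6 were measured, had a mean at day 2 from 8.25 to 13.53 in FVB Nx mice against 3.09 to 6.17 in sham mice, and from 8.03 to 9.71 against 3.29 to 6.15 in B6.
B and plasma cell markers, 2 of 5 measured, ran from 6.22 to 9.18 in FVB Nx mice at day 53 against 3.62 to 4.10 in sham mice, and from 5.29 to 5.89 against 3.52 to 4.24 in B6.
T cell markers, 3 of 6 measured, ran from 2.81 to 3.64 in FVB Nx mice at day 53 against 2.30 to 2.46 in sham mice, and from 2.77 to 3.52 against 2.27 to 2.43 in B6, with 2 called higher in FVB and 1 in B6.
The means of all 3 lists were thus above sham in every Nx kidney of these comparisons.
Adrenal cortex markers, 2 of 5 measured, ran from 2.66 to 11.19 among FVB Nx mice at day 53.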

How the data were processed

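Whole-kidney RNA of 48 mice was hybridised to Affymetrix mouse arrays, 1 per animal, after extraction from frozen tissue and biotin labelling, per the labels' protocols. The deposited table holds log2 values made by the authors for 45101 probe sets, judged to be log2 from their range of 2.1979 to 16.1753. MAS5 is listed per the submitters' processing notes, its role unstated, and the background correction, summary and normalisation behind the values are not given in the sources used here. On every array 31.1% to 32.7% of values lie at 1 shared lowest value, so changes from there are lower bounds. The values were used as deposited. With arrays it is the number of animals, 4 in each group, that sets the precision.

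Of the probe sets, 35890 were listed in the platform annotation, 34958 with 1 gene symbol and 932 with several, and the other 9211 were not named. A probe set was kept when it exceeded the 40th percentile of all values (2.277) on at least 4 arrays, and a gene was represented by its kept single-symbol probe set of highest mean, which gave 13174 genes. Group means were fitted to all 48 arrays with limma 3.58.1 in R 4.3.3 (16 contrasts, eBayes with an intensity trend, 36 residual degrees of freedom), and two-sided p-values were adjusted by Benjamini-Hochberg over all genes of a contrast, with 0.05 as the threshold. "Called" and "passed" mean an adjusted p under that value. SE is that of the fit. A fold is given as "at least" where the lower group lies wholly at or under the filter value, or at or under a value its probe set repeats on 10 or more arrays. The script was tested on simulated data.

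The 50 genes, their roles and the other lists were chosen with earlier results of these data known. Values per animal are given for Mki67 and Top2a, for 3 members of each other role, the 2 whose mean change was highest and the 1 whose mean change was lowest over the 6 surgery comparisons, and for members called between the strains (the 10 of smallest p at day 53), with further members by their change. Genes of other lists are among the 3 of smallest p per direction. Mice are separate animals by their labels. Mouse numbers recur in sham and Nx groups of a strain and day. The deviations of 10 same-numbered pairs from their group means correlated between -0.251 and 0.378 over genes, 5 of them over 0.1, so the numbers were not taken as pairs. Promoter sequences are those of RefSeq. Python 3.11.15 with pandas 2.3.3, numpy 2.4.6 and matplotlib 3.10.9 read the tables and drew the plots.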

Additional observations from a re-analysis of the deposited data

Results flagged for a closer look

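The surgery effect differed between the strains, by limma's test of the difference itself, for 6 members at day 2 and for 32 at day 53. Of all genes, 2.27% were called higher and 2.14% lower at day 2, and 14.2% higher at day 53. On the arrays of the day 2 comparison alone, only Nuf2 kept its call. Other kept probe sets of Kif23, Bub1b and Foxm1 did not pass at day 2. At day 2 the FVB minus B6 differences were -3.15 for Nuf2, -2.01 for Tk1, -1.25 for Rrm2, -1.12 for Bub1b, -0.36 for Foxm1 and 1.41 for Kif23. At day 53 the 10 with the smallest p were Uhrf1 (3.07), Anln (2.64), Bub1 (2.45), Chek1 (2.05), Kif23 (1.90), Kif2c (1.86), Prc1 (1.74), Cdc6 (1.69), Gins1 (1.53) and Pcna (0.74). Between days, the surgery effect fell for 29 members in FVB and 35 in B6 from day 2 to day 28, where 12.5% and 4.02% of all genes were called lower. It rose for 22 members in FVB from day 28 to day 53, where 13.7% of all genes were called higher.

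Single mice that stood apart from the other 3 of their group were sought among the log2 levels of 340 groups of values, where chance alone picks out about 1 in 20 groups, and 29 were found. Groups with 3 or more arrays at about or under the dim level of the gene's probe set were not tested. In FVB sham mouse 6 at day 53, the mean of the kinetochore, checkpoint and anaphase members was 3.36, against 2.98 to 3.01 in the other mice. In FVB sham mouse 6 at day 53, the mean of the DNA synthesis members was 5.81, against 5.56 to 5.58 in the other mice. In FVB Nx mouse 8 at day 53, the mean of the cyclins and mitotic kinases was 4.03, against 4.71 to 4.80 in the other mice. In B6 Nx mouse 3 at day 2, the mean of the S phase members was 5.37, against 4.92 to 4.95 in the other mice. In B6 sham mouse 5 at day 28, the mean of the proliferation markers was 3.62, against 4.34 to 4.41 in the other mice. In B6 sham mouse 1 at day 53, the mean of the cyclins and mitotic kinases was 3.03, against 2.49 to 2.58 in the other mice. In B6 sham mouse 1 at day 53, the mean of the spindle and cytokinesis members was 3.77, against 3.28 to 3.36 in the other mice.

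Cdk1 was 4.68 in FVB sham mouse 6 at day 53 (others 3.55 to 3.70) and 4.88 in B6 sham mouse 1 at day 53 (others 3.46 to 3.65). Cenpf was 3.25 in FVB sham mouse 5 at day 2 (others 4.01 to 4.16), 3.87 in B6 sham mouse 6 at day 28 (others all 2.62) and 3.77 in B6 sham mouse 1 at day 53 (others 2.52 to 2.62). Anln was 4.29 in FVB sham mouse 2 at day 2 (others all 4.34) and 4.28 in B6 sham mouse 1 at day 53 (others all 3.40). Ect2 was 10.03 in B6 Nx mouse 9 at day 2 (others 9.66 to 9.72). Rrm2 was 9.27 in FVB sham mouse 2 at day 2 (others 8.90 to 8.96), 9.55 in FVB Nx mouse 8 at day 53 (others 10.08 to 10.12) and 8.00 in B6 Nx mouse 7 at day 53 (others 8.31 to 8.34). Tyms was 2.41 in FVB sham mouse 2 at day 2 (others 2.96 to 3.05) and 3.75 in B6 Nx mouse 3 at day 2 (others 2.96 to 2.97). Uhrf1 was 8.58 in B6 Nx mouse 3 at day 2 (others 8.00 to 8.07) and 5.51 in B6 Nx mouse 1 at day 53 (others 5.19 to 5.21). Ccne2 was 5.34 in FVB sham mouse 2 at day 2 (others 4.89 to 4.91). Bub1b was 5.60 in B6 Nx mouse 5 at day 2 (others 4.49 to 4.65). Cdc6 was 2.32 in FVB sham mouse 5 at day 2 (others all 2.45) and 2.39 in FVB sham mouse 6 at day 53 (others all 2.38). Prc1 was 2.62 in FVB sham mouse 4 at day 28 (others 2.44 to 2.47), 2.58 in B6 sham mouse 1 at day 53 (others 2.43 to 2.45) and 3.31 in B6 Nx mouse 1 at day 53 (others 2.89 to 2.93). B6 sham mouse 1 of day 53 was high in 6 of these values, among them Cdk1, Cenpf, Anln and Prc1.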

How the results depend on the processing

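The counts of members called were recomputed under 13 other settings and with each array left out. Without the arrays that hold pancreatic transcripts (29 arrays, 1 Nx array per strain at day 2 and day 28, assumed to vary like the other groups), the FVB count at day 28 was 1 in place of 21, the strain difference at day 28 was 18 in place of 0, and in B6 the fall from day 2 to day 28 was 21 in place of 35 and that from day 28 to day 53 was 17 in place of 0. With only the arrays of the comparison, the B6 count at day 28 was 14 in place of 25. The B6 sham count of day 2 against later days, 8, was 5 with no filter on low values, 14 with array weights and 0 in a fit limited to its own arrays. Leaving out 1 array gave 42 to 44, 19 to 22 and 34 to 36 for FVB at day 2, 28 and 53, 45 to 46, 18 to 28 and 13 to 16 for B6, 3 to 8, 0 to 2 and 29 to 33 for the strain difference, 27 to 32 and 15 to 26 for the FVB steps in time, 31 to 40 and 0 for the B6 steps, 4 to 6 between sham strains, and 12 to 17 and 2 to 11 for the FVB and B6 sham kidneys at day 2. Of single members, 223 called results gave 2871 values under the other settings, of which 2752 kept direction and call, 119 kept direction alone and 0 reversed. Among 2088 values with 1 array left out, 91 lost the call. Mouse number as a replicate block left all 223 calls in place and the 32 members called between strains at day 53. With a common array median the median of all genes shifted to -0.204 in FVB and -0.144 in B6 at day 2, to -0.169 in FVB and -0.107 in the strain difference at day 53, and to 0.121 for the FVB step from day 2 to day 28. For 27 members with other kept probe sets, 142 of 198 results of these had the same call, 53 were called by the used probe set alone, 3 by the other alone, and 0 were called opposite. Dim signal limits 18 of the 48 members, whose probe sets repeat 1 value on at least 10 arrays, and others such as Aurka, at or under the dim level on 31 arrays, and Melk, on 14.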
